A study of Oryctolagus cuniculus with 6 samples.

Results

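The cilium movement genes described here are 6 rabbit (Oryctolagus cuniculus) genes, out of 16815 in the count table, that the authors' deposited enrichment table lists under the term cilium movement. RNA was sequenced from tracheal tissue taken on day 14, in a hydrogel group and a blank group of 3 libraries each. In the hydrogel group wild-type rabbits had an epithelial injury and received the material named LA@PA-TA@C. The blank group comprised wild-type rabbits with an epithelial deficiency and no stated treatment. Both groups thus carry epithelial damage, under different words in the labels, and no uninjured trachea was analysed here. Libraries of a group are biological replicates per the design text; no source used here gives strain, age, sex or any pooling of animals.

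Motile cilia are hair-like projections of multiciliated airway cells, and their coordinated beating carries mucus and trapped particles out of the trachea. Each is built around an axoneme of microtubules, along which dynein motor arms generate the bending force and radial spokes and linker complexes regulate it. Genes annotated to cilium movement typically encode parts of this motor machinery or factors needed to assemble it. The 6 genes are known here only by Ensembl rabbit identifiers, none of which could be paired with a symbol, so no role within the axoneme is assigned to any of them. For the same reason the tissue could not be checked against markers of ciliated, basal, secretory, cartilage or connective tissue cells.

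All 6 genes already differed between hydrogel and blank in the authors' comparison of these libraries, so they are treated as selected on it. That contrast is given below as a description and supports nothing further. In the authors' deposited table the term has 10 genes in a background of 8089, of which 6 fell in a cluster of 153 genes; the other 4 were not analysed here. All 6 also stand in the authors' deposited table of 1019 differing genes, which is limited to genes with an adjusted p below 0.05 that differ by more than 2 on the log2 scale in either direction. Nearest to the fold limit was ENSOCUG00000025031, with a log2 fold change of 2.74 in the authors' deposited table, and nearest to the p limit was ENSOCUG00000009754, with an adjusted p of 0.00334 in the authors' deposited table. Of the 14 further genes listed under cilium assembly or non-motile cilium assembly, 7 are in that table, so the term lists also took in genes outside its limits. Among the 27 GO terms of the authors' sheet, ENSOCUG00000009400 is the only member listed under a second one, cilium assembly.

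Libraries held 16827419 to 23095010 counts in the hydrogel group and 17292087 to 23390531 in the blank group. The 6 genes together took 0.0481%, 0.127% and 0.113% of all counts in hydrogel replicates 1, 2 and 3, and 0.00628%, 0.00203% and 0.00102% in blank replicates 1, 2 and 3. Levels below are counts scaled to library size (CPM) with library sizes scaled by TMM, a trimmed mean of ratios between libraries. CPM is not divided by gene length, so levels are compared between libraries and not between genes. These are bulk tissue samples, in which fewer cells of a type and less RNA per cell cannot be told apart. Intervals given for counts cover counting error only. Blank replicate 1 was the highest blank library in each of these genes, so levels and calls are also given without it.

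In every one of the 6 genes, the lowest hydrogel library lay above the highest blank library. Across all 13598 genes tested, 18.3% were higher in hydrogel without overlap between the groups. The 6 genes are treated as selected on this contrast, so nothing is read from their number. The geometric mean level of the 6 genes was 55.8, 132 and 118 CPM in hydrogel replicates 1, 2 and 3, against 7.52, 0.427 and 0.790 CPM in blank replicates 1, 2 and 3. It averaged 102 ± 40.7 CPM in hydrogel and 2.91 ± 3.99 CPM in blank (SD, n = 3 each). The blank mean rests mostly on blank replicate 1: without it the level was 0.608 CPM.

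**Figure D1:**
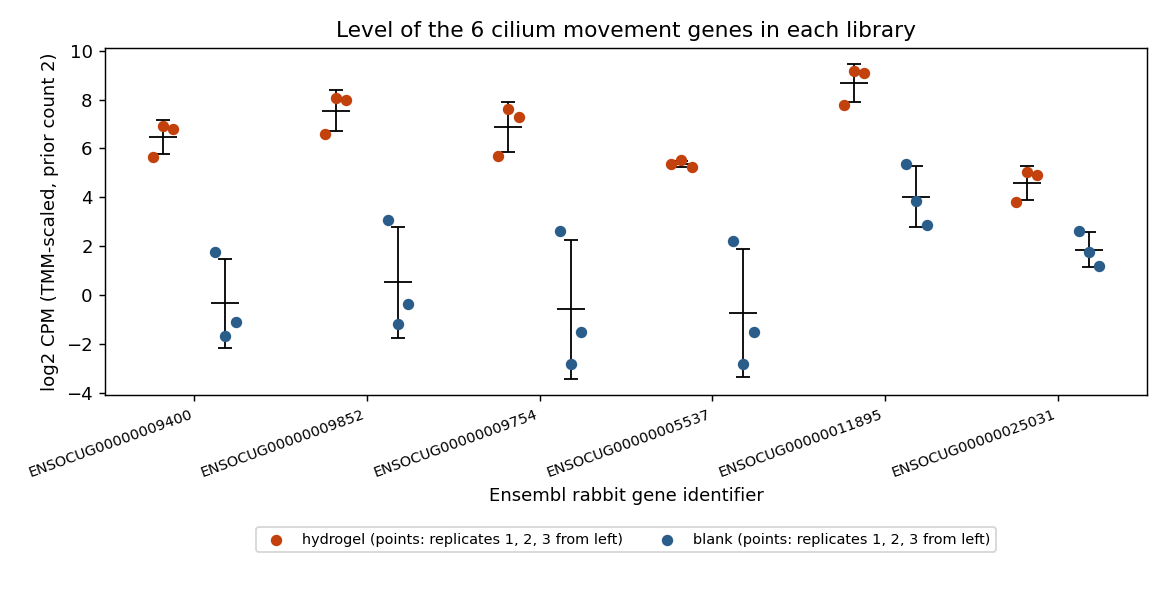
Level of each cilium movement gene (log2 CPM with a prior count of 2) in the hydrogel libraries (left in each pair) and the blank libraries (right); points are libraries and bars are the mean ± SD of 3. In all 6 genes the groups do not overlap, and blank replicate 1 is the highest of the blank libraries.

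A set of 4 members had very low levels in blank replicates 2 and 3, and the gap between groups was widest for these. ENSOCUG00000009400 had 50.0, 121 and 110 CPM in hydrogel replicates 1, 2 and 3, against 3.24, 0.212 and 0.372 CPM in blank replicates 1, 2 and 3. Its lowest hydrogel library was 15.4 times its highest blank library, the widest separation of the 6. In the edgeR quasi-likelihood fit the log2 fold change was 6.18 (approximate SE 1.04, adjusted p = 0.0251).

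ENSOCUG00000009852 had 95, 264 and 255 CPM in hydrogel replicates 1, 2 and 3, against 8.40, 0.340 and 0.682 CPM in blank replicates 1, 2 and 3. Of its hydrogel libraries replicate 1 was the lowest, and of its blank libraries replicate 1 was the highest, with a factor of 11.3 between them. The edgeR log2 fold change was 6.01 (approximate SE 1.22, adjusted p = 0.0377).

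ENSOCUG00000009754 had 52.1, 196 and 155 CPM in hydrogel replicates 1, 2 and 3, against 6.01, 0.0425 and 0.248 CPM in blank replicates 1, 2 and 3. It had the widest spread of the 6 within both groups, with a coefficient of variation of 55.1% in hydrogel and 161% in blank. The edgeR log2 fold change was 5.98 (approximate SE 1.45), which did not pass the threshold of 0.05 (adjusted p = 0.0567).

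ENSOCUG00000005537 had 40.6, 45.3 and 37.7 CPM in hydrogel replicates 1, 2 and 3, against 4.46, 0.0425 and 0.248 CPM in blank replicates 1, 2 and 3. Its hydrogel libraries were close together, with a coefficient of variation of 9.35%, where the other 5 genes had 40.0% to 55.1%. It was the only member for which hydrogel replicate 1 was not the lowest hydrogel library. The edgeR log2 fold change was 4.69 (approximate SE 1.29), which did not pass (adjusted p = 0.0784).

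For these 4 genes blank replicates 2 and 3 held between 1 and 11 counts, against 69 to 179 in blank replicate 1. A single count, as for ENSOCUG00000009754 and ENSOCUG00000005537 in blank replicate 2, corresponds to 0.0425 CPM with an exact 95% Poisson interval of 0.00107 to 0.237 CPM. The 4 counts of each in blank replicate 3 correspond to 0.248 CPM with an interval of 0.0675 to 0.635 CPM. The intervals overlap, so the order of blank replicates 2 and 3 was not resolved at this depth for either gene.

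The other 2 members were measurable in every blank library. ENSOCUG00000011895, which took the most counts of the 6, had 217, 574 and 550 CPM in hydrogel replicates 1, 2 and 3, against 40.7, 14.2 and 7.19 CPM in blank replicates 1, 2 and 3. Its lowest hydrogel library was 5.34 times its highest blank library, and the edgeR log2 fold change was 4.43 (approximate SE 0.729, adjusted p = 0.0240).

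ENSOCUG00000025031 had 13.8, 32.5 and 30.3 CPM in hydrogel replicates 1, 2 and 3, against 6.10, 3.27 and 2.17 CPM in blank replicates 1, 2 and 3. The groups were closest for this gene, with 2.26 times between the lowest hydrogel and the highest blank library. Its edgeR log2 fold change of 2.73 (approximate SE 0.544, adjusted p = 0.0360) was the smallest of the 6.

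Over the 13598 genes tested, edgeR called 6.36% at an adjusted p under 0.05, and 4.49% were called higher in hydrogel. Of the 6 cilium movement genes, 4 rose by that test: ENSOCUG00000009400, ENSOCUG00000009852, ENSOCUG00000011895 and ENSOCUG00000025031. All 6 were called with DESeq2, which called 8.75% of genes higher; the authors' deposited comparison was made with DESeq2 on these libraries, so this was given in advance. With limma-voom, which called 3.05% higher, only ENSOCUG00000011895 and ENSOCUG00000005537 passed. The median log2 fold change of the 6 was 5.33, beside -0.03 over all genes tested.

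The number called depended on single libraries. It was 0 of 6 without hydrogel replicate 2, where 0.036% of all genes were called higher, and 0 without hydrogel replicate 3, where 0.0501% were. In both edgeR fits the unadjusted p of all 6 genes was under 0.05. The share of all genes under that limit was not counted, and the 6 are treated as selected on this contrast. Nothing is therefore read from these unadjusted p-values. The number called was 2 without blank replicate 3, where 3.04% of all genes were called higher. It was 3 without hydrogel replicate 1 (2.81%) or without blank replicate 2 (2.73%). Without blank replicate 1, where 4.31% were called higher, all 6 passed and the median log2 fold change was 8.29. With the replicate number as a block, 0 of 6 passed, where 0.0735% of all genes were called higher. The unadjusted edgeR p of all 6 was under 0.05 in that fit too, and again nothing is read from it.

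**Figure D2:**
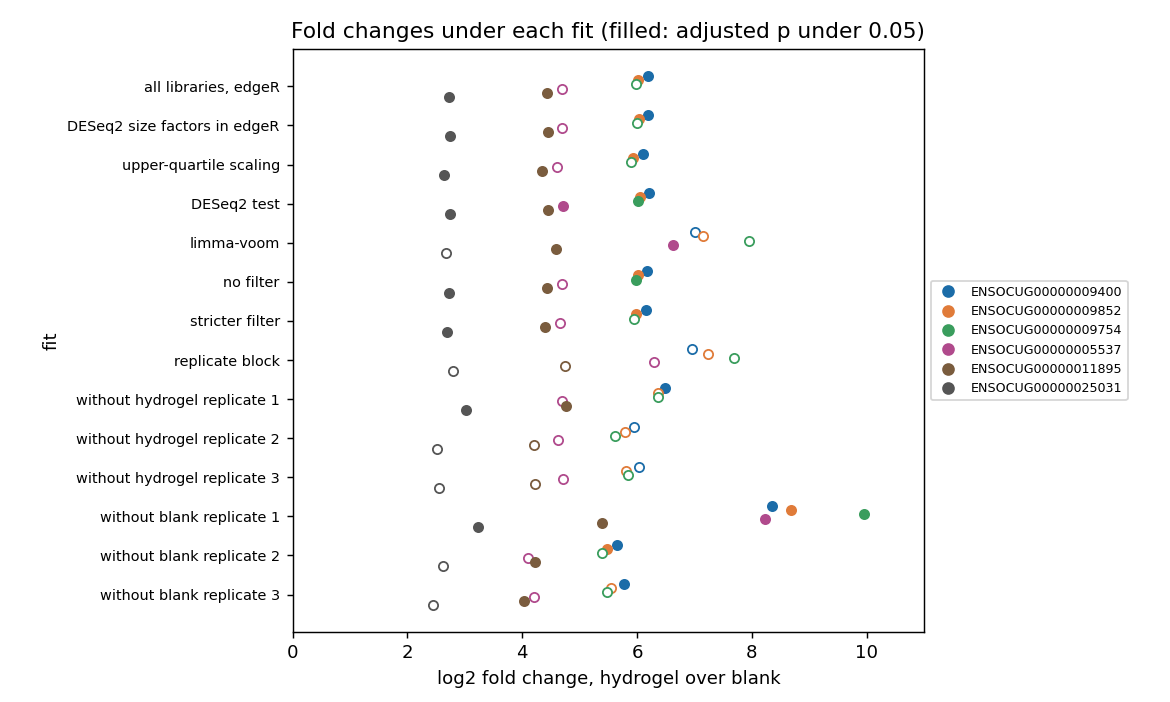
Log2 fold change, hydrogel over blank, of each cilium movement gene (colours) under every fit; filled points passed an adjusted p under 0.05. All values are positive; no point is filled in the fits that leave out hydrogel replicate 2 or 3 or use the replicate block, and all 6 are filled with DESeq2 and where blank replicate 1 is left out.

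Leaving out blank replicate 1 moved the genes unequally. ENSOCUG00000009754 moved the most, to a log2 fold change of 9.95, and ENSOCUG00000005537 reached 8.23. For each of these genes the blank side of that fit was 1 and 4 counts, so the size of both values is poorly determined. ENSOCUG00000011895 reached 5.38 and ENSOCUG00000025031 reached 3.23.

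The members also shared features within a group. The authors' adjusted p depends on the spread within groups and how their cluster was formed is not stated, so these features too may have entered the choice and are given as a description. Blank replicate 1 was the highest blank library for all 6 genes, as it was for 63.9% of the genes called higher by edgeR and 34.5% of all genes tested. Hydrogel replicate 2 was the highest hydrogel library for all 6, against 49.2% of the genes called higher and 28.7% of all genes tested. Hydrogel replicate 1 was the lowest hydrogel library for 5 of 6, against 77.9% of the genes called higher and 39.8% of all genes tested. Of the 14 other cilium-term genes, these features were present in 10, 8 and 14, in that order. The pair of features, blank replicate 1 highest and hydrogel replicate 1 lowest, was present in 5 of 6 members, in 10 of the 14 other cilium-term genes, in 53.4% of the 610 genes called higher by edgeR and in 16.2% of all genes tested. Genes that share libraries are not independent, so these shares are descriptions.

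The elevation of blank replicate 1 over the other blanks differed widely between members. Its level was 41.4 times the mean of blank replicates 2 and 3 for ENSOCUG00000009754 and 30.7 times for ENSOCUG00000005537. It was 16.4 times for ENSOCUG00000009852, 11.1 times for ENSOCUG00000009400, 3.80 times for ENSOCUG00000011895 and 2.24 times for ENSOCUG00000025031. As a log2 difference on the CPM scale with a prior count, the median over the 6 genes was 3.50. The same median was 0.51 over the 14 other cilium-term genes, 0.59 over the genes called higher by edgeR and 0.09 over all genes tested. Over the 14 genes the difference ran from -0.10 to 4.10, so high values were not confined to the members. The ratio was also 31.5 for ENSOCUG00000039060 and 27.9 for ENSOCUG00000011768, which lie outside the 6 but close to them in profile. For ENSOCUG00000009754 and ENSOCUG00000005537 the ratio rests on 1 and 4 counts in blank replicates 2 and 3.

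Set against the hydrogel mean, blank replicate 1 held 3.45% of the level of ENSOCUG00000009400 and 4.10% and 4.47% of the levels of ENSOCUG00000009852 and ENSOCUG00000009754. It held 10.8% for ENSOCUG00000005537, 9.09% for ENSOCUG00000011895 and 23.9% for ENSOCUG00000025031. The share was thus not the same for all members. The mean of blank replicates 2 and 3 was at 0.108% to 0.352% of the hydrogel mean for the 4 low genes, at 2.39% for ENSOCUG00000011895 and at 10.6% for ENSOCUG00000025031.

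Within the hydrogel group the contrast ran the other way. The mean of hydrogel replicates 2 and 3 was 2.28 to 3.37 times hydrogel replicate 1 for 5 members, and 1.02 times for ENSOCUG00000005537. Hydrogel replicates 2 and 3 themselves differed by 1.04 to 1.26 times. The median log2 difference of hydrogel replicate 1 from the mean of hydrogel replicates 2 and 3 was -1.29 over the 6 genes, -1.22 over the 14 other cilium-term genes, -0.75 over the genes called higher by edgeR and 0.01 over all genes tested.

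**Figure D3:**
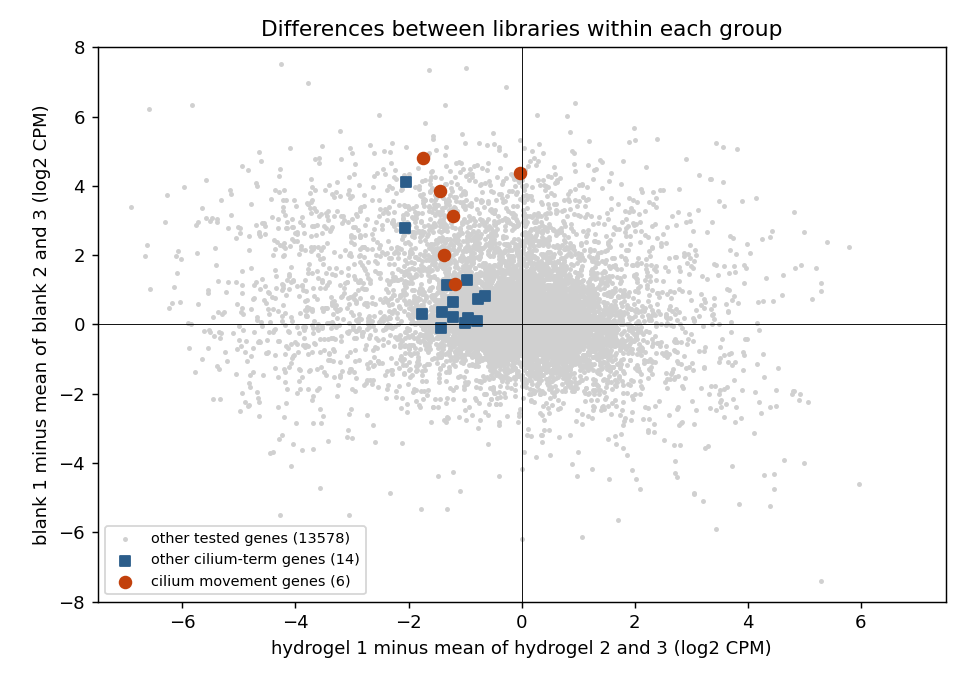
Difference of replicate 1 from the mean of replicates 2 and 3 (log2 CPM) in hydrogel (horizontal axis) and in blank (vertical axis), for 6 cilium movement genes, 14 other cilium-term genes and all other tested genes. All cilium-term genes lie left of 0 horizontally, and the cilium movement genes reach up to 4.80 vertically.

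The estimated spread between libraries also differed between the members. The biological coefficient of variation that edgeR assigned was 107% for ENSOCUG00000009754, 98.3% for ENSOCUG00000005537, 85.0% for ENSOCUG00000009852 and 74.3% for ENSOCUG00000009400. It was 55.1% for ENSOCUG00000011895 and 48.0% for ENSOCUG00000025031, against a median of 39.7% over all genes tested. The 2 genes that did not pass edgeR were those with the highest values. The test uses this spread, so that match is partly built in. For ENSOCUG00000005537 the coefficient of variation of CPM was 9.35% in hydrogel and 157% in blank, so its spread lay in the blank libraries.

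The make-up of the summed counts of the 6 genes differed between libraries. ENSOCUG00000011895 supplied 46.4%, 46.6% and 48.3% of them in hydrogel replicates 1, 2 and 3, against 59.1%, 78.5% and 65.9% in blank replicates 1, 2 and 3. ENSOCUG00000025031 supplied 2.94%, 2.63% and 2.67% in the hydrogel libraries, against 8.86%, 18.0% and 19.9% in the blank libraries. Both shares were higher in each blank library than in any hydrogel library, and the exact Clopper-Pearson 95% intervals of hydrogel and blank libraries did not overlap for either gene.

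The remaining 4 genes supplied less of the sum in the blank libraries, with 1 exception. ENSOCUG00000009852 supplied 20.3%, 21.4% and 22.4% in hydrogel replicates 1, 2 and 3, against 12.2%, 1.87% and 6.25% in blank replicates 1, 2 and 3. ENSOCUG00000009400 supplied 9.66% to 10.7% in hydrogel and 1.17% to 4.70% in blank, and ENSOCUG00000009754 supplied 11.1% to 15.9% in hydrogel and 0.234% to 8.72% in blank. ENSOCUG00000005537 was the exception, with 8.65%, 3.67% and 3.31% in hydrogel replicates 1, 2 and 3, against 6.47%, 0.234% and 2.27% in blank replicates 1, 2 and 3. Its share was highest in replicate 1 of each group, and the groups overlapped.

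**Figure D4:**
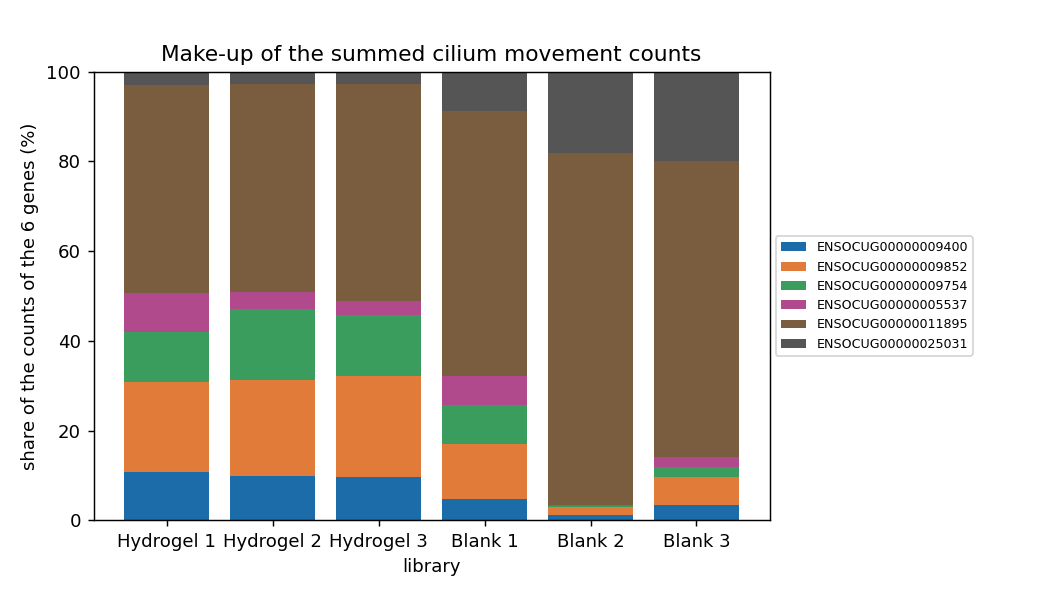
Share of the summed counts of the 6 cilium movement genes taken by each gene (stacked bars, percent) in each library, hydrogel on the left. ENSOCUG00000011895 alone supplies 59.1%, 78.5% and 65.9% of the sum in blank replicates 1, 2 and 3. In hydrogel replicates 1, 2 and 3 it supplies 46.4%, 46.6% and 48.3%.

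Likeness between library profiles was measured as the root mean square difference over the 6 libraries, in log2 CPM, after centring each gene on its own mean. The closest pair was ENSOCUG00000009400 and ENSOCUG00000009852, at 0.29, followed by ENSOCUG00000009852 and ENSOCUG00000009754, at 0.42. The farthest pair was ENSOCUG00000025031 and ENSOCUG00000009754, at 2.72. From the mean of the other 5 genes, ENSOCUG00000025031 stood at 2.04, ENSOCUG00000009754 at 1.24 and ENSOCUG00000011895 at 0.97, and the other 3 at 0.61 to 0.81. ENSOCUG00000025031 and ENSOCUG00000011895 were at 1.01 from each other. The measure takes in the size of the difference between groups as well as the variation within them.

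Outside the 6, the gene most like their mean profile was ENSOCUG00000039060, at a root mean square difference of 0.15 over 6 libraries. It had 9.96, 25.0 and 25.5 CPM in hydrogel replicates 1, 2 and 3, against 1.64, 0.0425 and 0.0620 CPM in blank replicates 1, 2 and 3. The next was ENSOCUG00000011768, at 0.20, with 8.91, 20.6 and 16.0 CPM in hydrogel replicates 1, 2 and 3, against 1.45, 0.0425 and 0.0620 CPM in blank replicates 1, 2 and 3. The order rests on the settings: with a prior count of 0.5 ENSOCUG00000039060 was 11th, at 0.40, and with profiles centred within each group it was 5th, while ENSOCUG00000011768 was nearest in both. Neither is listed under a cilium term in the authors' table. Blank replicates 2 and 3 held 1 count of each, so their levels there are set by counting error.

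Closeness to the mean profile of the 6 was not confined to the cilium lists. Of 13592 other tested genes, 662 (4.87%) lay as close to that profile as its farthest member, ENSOCUG00000025031 at 1.70, and 130 lay at least as close as the median member. The first distance is wide, so a gene within it need not share the differences between libraries of a group. The members themselves enter the mean profile, which draws it towards them. Of the 14 other cilium-term genes, 4 lay within the first distance and 2 within the second.

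**Figure D5:**
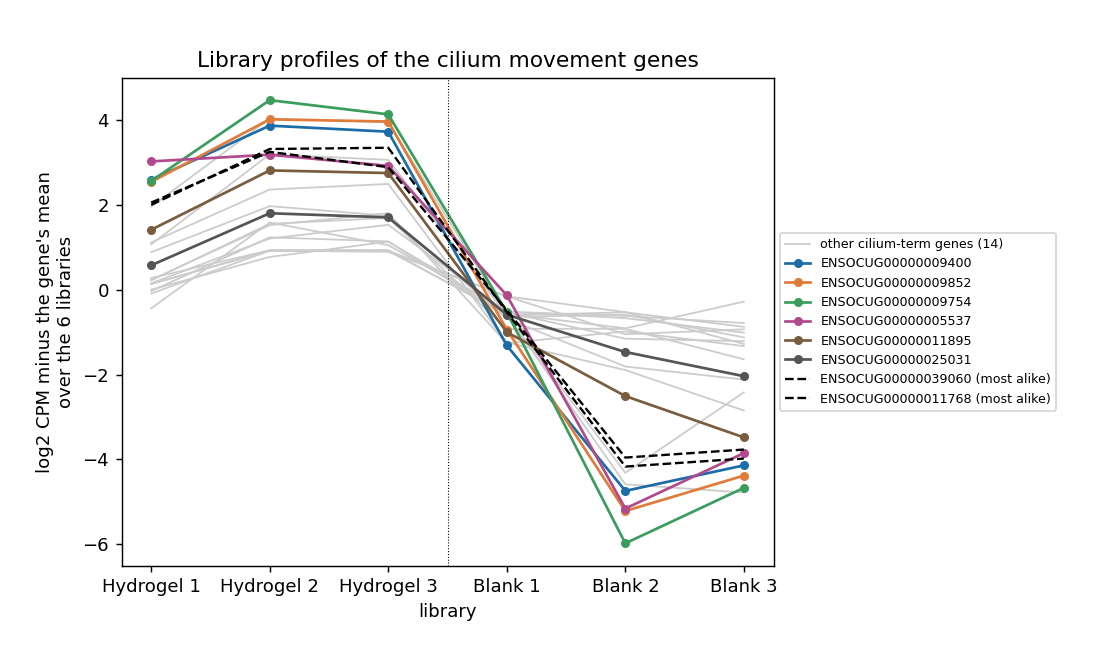
Library profiles (log2 CPM minus the gene's mean over the 6 libraries) of the 6 cilium movement genes, the 14 other cilium-term genes (grey) and the 2 most alike genes (dashed), with hydrogel libraries on the left. The cilium movement genes share the dip at hydrogel replicate 1, apart from ENSOCUG00000005537, and have blank replicate 1 as their highest blank library. For ENSOCUG00000011895 and ENSOCUG00000025031 the fall from blank replicate 1 to 2 to 3 is graded.

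Cilium assembly covers the building of the axoneme and its anchoring, and non-motile cilium assembly the building of sensory cilia that do not beat. Of the 14 genes listed under these terms and not under cilium movement, 10 rose in edgeR and 4 did not pass. That test called 4.49% of all genes tested higher. These 14 genes too may have been chosen on this contrast, so nothing is read from the number called. Their log2 fold changes ran from 1.22 to 5.69 with a median of 1.85. ENSOCUG00000009400, the member that is also listed for cilium assembly, had a larger log2 fold change than any of them. All 14 were higher in hydrogel without overlap, beside 18.3% of all genes tested. The number called was 14 with DESeq2, beside 8.75% of all genes, and 4 with limma-voom, beside 3.05%. In edgeR fits it was 4 when blank replicate 2 was left out (2.73% of all genes) and 2 when blank replicate 3 was (3.04%). It was 0 when hydrogel replicate 2 (0.036%) or hydrogel replicate 3 (0.0501%) was left out, and 0 with the replicate block (0.0735%). In these 3 fits all 14 had an unadjusted p under 0.05. Nothing is read from that, since they may have been chosen on this contrast.

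A protein measurement on tracheal sections, which did not enter the choice of the genes, is available only as a comparison. For sections, the authors' deposited table gives the measure labelled AC-Tub, a common abbreviation for acetylated tubulin of cilia, with a difference of blank minus hydrogel of -78.82 (95% interval -105.6 to -52.07, Tukey's test). It was thus higher in hydrogel sections. No source used here gives its unit, its time point or whether the sections came from the sequenced animals.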

How the data were processed

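Per the submitters' processing notes, the tools include HISAT2 2.2.1, Trimmomatic 0.39, DESeq2 1.34.0 and featureCounts 2.0.2. Those notes name human and mouse genome builds although the samples are rabbit. No source used here gives the rabbit build, annotation or strand setting, so overlapping genes and near-identical copies may share reads. The authors deposited whole-number counts per gene, and, for their own comparison, log2 fold changes and p-values. Members are the identifiers listed for cilium movement in the deposited sheet of terms, the same in all 6 workbooks. Counts of 13598 genes kept by filterByExpr were tested with edgeR 4.0.16 in R 4.3.3 (quasi-likelihood fit, TMM, group as the term, Benjamini-Hochberg adjustment over all of them, threshold 0.05). Standard errors are approximate, derived as the fold change over the root of F. A prior count of 2 was used for log2 CPM. The test was checked on simulated data, in 3 draws with 200 changed genes each. It recovered 42% of the 4-fold and 78.7% of the 16-fold changes, and 5.07% of its calls were false. Simulated libraries of a group differed only by size and random spread, so none was higher over a set of genes, as blank replicate 1 was among the blanks. Alternatives used DESeq2 1.42.0, limma 3.58.1, other scalings and filters, a replicate block, and fits without each library in turn. The 6 members and the other lists were chosen with earlier results of these data known. Named genes are the 6 members and the 2 tested genes nearest to their mean profile. Of 16815 identifiers, 0 matched the reference gene table (mOryCun1.1), so the cell type markers could not be used and no sequence is shown. In each workbook 384 further columns of numbers had no match to a sample and were left out. The authors' terms, fold changes, p-values and section comparison come from other sheets of workbooks named FPKM; the sheets of scaled expression values per library in them were not used.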

Additional observations from a re-analysis of the deposited data

How the results depend on the processing

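Over all genes, the counts of called, higher and lower genes were 865, 610 and 255. They were 2104, 1281 and 823 with the DESeq2 test, and 15, 10 and 5 with the replicate block. Leaving out 1 library gave 7 to 741 called, 5 to 603 higher and 2 to 246 lower. Of the 6 cilium movement genes, 4 were called, where 4.49% of all genes were called higher. The number was 2 with limma-voom (3.05% of all genes) and 0 with the replicate block (0.0735%). With 1 library left out it was 0 to 6, where 0.036% to 4.31% of all genes were called higher. Of the 14 other cilium-term genes, 10 were called, beside the same 4.49%. The number was 4 with limma-voom (3.05%), 0 with the replicate block (0.0735%) and 2 with blank replicate 3 left out (3.04%). The range with 1 library left out was 0 to 10, beside the same 0.036% to 4.31% of all genes. The median log2 fold change of the 6 genes, 5.33, was 6.81 with limma-voom and 4.80 to 8.29 with 1 library left out. For libraries with the same number, the correlations of their deviations from the group means were -0.20, 0.01 and -0.10. With 3 libraries a group these cannot settle whether a number marks a shared animal or day. The labels do not say so, and the replicate block is therefore given as an alternative. Of the 2 most alike genes, 1 stayed among the 2 nearest with a prior count of 0.5, and 1 with profiles centred within each group, ENSOCUG00000011768 in both. Each of the 6 genes had a positive log2 fold change in every fit run; of 78 single-gene values under alternatives, 53 kept their side of the threshold, 19 lost the call and 6 gained it. CPM from library totals without TMM was chosen after seeing the data and moved the geometric mean levels by less than the spread between replicates. The cause of these differences was not tested. Depth limits the 4 low genes in blank replicates 2 and 3, where they had 1 to 11 counts.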
